A study of Mus musculus with 4 samples.

Results

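The genes described here are 8 cell-surface genes of the mouse prostate: the Ly6 genes Ly6a, Ly6c1, Ly6c2, Ly6d, Ly6e and Ly6k, their relative Psca, and the progenitor marker Prom1. They were taken by symbol from a table of 23242 rows, and all 8 were found. The RNA was sequenced from the ventral and dorsal lobes of the prostate, in 4 mice of the FVB strain. The wild types were mice 27 and 28, and the animals homozygous for a TMPRSS2:ERG transgene were mice 26 and 29, each sequenced as its own library. The transgene is a bacterial artificial chromosome of the TMPRSS2 locus into which exons of human ERG were placed behind a floxed GFP sequence. Cre protein was injected into pronuclei of a line with high GFP, and the homozygotes come from a single sub-line that transmitted the transgene. Both groups share the FVB background, and no source used here gives the animals' age. The genes were selected on their measured FPKM difference between these genotypes, which was already known, so their differences are given below as a description, without p-values. Pairs of values are listed in the order mouse 27, mouse 28 for wild types and mouse 26, mouse 29 for homozygotes.

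Ly6 proteins are small surface proteins held on the outer face of the cell membrane by a glycosylphosphatidylinositol (GPI) lipid anchor, and their fold is set by conserved cysteines. Ly6a, known as Sca-1, marks blood stem cells and, in the prostate, epithelial cells of the proximal ducts from which prostate tissue has been grown. Ly6c1 and Ly6c2 carry the Ly6C antigen of monocytes and of some endothelial and T cells. Psca is prostate stem cell antigen, also a protein of stomach and bladder epithelium. Prom1, known as CD133, is a membrane protein of cell protrusions and is unrelated to Ly6 proteins.

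Ly6a, Ly6c1 and Ly6c2 are close copies, and the start of their coding sequences is shown because it bears on how reads can be told apart. The first 120 coding bases of a GENCODE M21 transcript of each follow, on the build of the C57BL/6J strain and not of FVB, with capitals at the 12 positions where the genes are not all alike.
Ly6a: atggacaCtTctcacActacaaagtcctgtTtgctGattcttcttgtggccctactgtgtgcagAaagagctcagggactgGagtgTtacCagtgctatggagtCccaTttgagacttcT
Ly6c1: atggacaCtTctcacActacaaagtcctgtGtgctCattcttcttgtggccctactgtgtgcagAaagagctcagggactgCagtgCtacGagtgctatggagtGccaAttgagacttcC
Ly6c2: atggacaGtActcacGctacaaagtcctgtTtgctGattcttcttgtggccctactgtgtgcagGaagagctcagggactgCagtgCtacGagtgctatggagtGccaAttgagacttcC
In these bases Ly6c1 and Ly6c2 differ at 6 positions, Ly6a and Ly6c1 at 8, and Ly6a and Ly6c2 at 10. Over the whole coding sequence Ly6c1 and Ly6c2 were 97.7% identical (384 of 393 aligned positions), and Ly6a was 81.8% identical to Ly6c1 and 81.6% to Ly6c2. The other 18 pairs among Psca and the Ly6 members were 45.8% to 53.5% identical. Of the distinct 50-base windows in the annotated transcripts of Ly6c1, 32.8% (578 of 1764) also occur in a transcript of another gene, 379 of them in Ly6c2 and 195 in Ly6a. For Ly6a the share was 19% (246 of 1297), and for Ly6c2 it was 14.4% (393 of 2733). Ly6d, Ly6e, Ly6k and Psca shared no such window with another gene, and Prom1 shared 0.344%. With windows of 75 bases the shares of Ly6a, Ly6c1 and Ly6c2 fell to 6.33%, 19% and 9.46%. No source used here gives the read length or how reads with several matches were counted, so the split of reads between these 3 genes is uncertain.

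**Figure D1:**
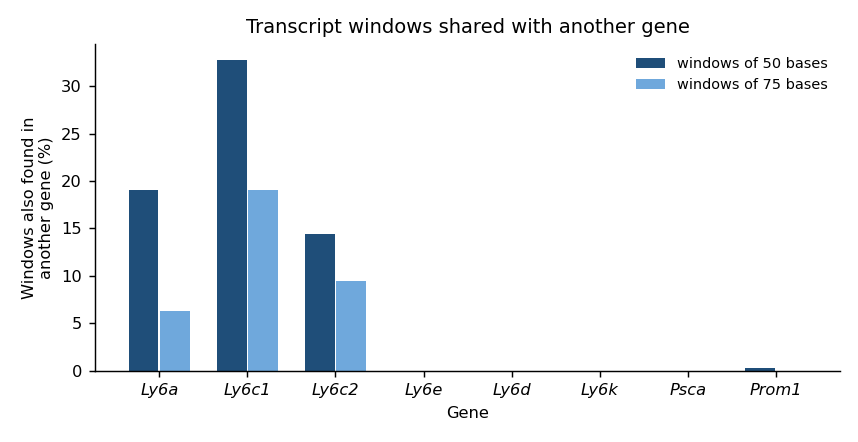
Share (%) of the distinct 50-base and 75-base windows in the annotated transcripts of each gene that also occur in a transcript of another gene. Ly6c1 stands highest at 32.8% for 50 bases, and Ly6d, Ly6e, Ly6k and Psca are at 0.

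Levels are given as scaled FPKM, the deposited fragments per kilobase of transcript and per 1e6 fragments divided by a scaling factor for each library. The 4 libraries had 11541 to 11854 genes at 1 FPKM or more, and the spacing of the lowest values places each between 41.3 and 47.5 × 1e6 fragments, an estimate. The prostate genes Pbsn (9476 to 14386 scaled FPKM) and Hoxb13 (237 to 288) were abundant in every library. Mouse Erg was at 0.881 to 1.12 in all 4 libraries, and transcripts of the human cassette were not analysed here. In wild types a seminal vesicle gene, Svs1, was at 3421 and 236, and in homozygotes at 3.83 and 1.05. Other genes of the seminal vesicle list stayed abundant in homozygotes. Pate4 was at 15870 and 9904 in wild types and 4318 and 8148 in homozygotes. Svs5 was at 20315 in mouse 28, missing in mouse 27, and at 6311 and 11693 in homozygotes. Mouse 28 stood above the other libraries in several urothelial genes, given with Ly6d below.

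In homozygotes, transcripts of Ly6a, Ly6c1 and Ly6e were higher and those of Psca lower. Ly6c1 differed most, with a 13.6-fold higher mean, followed by Ly6a at 7.05-fold and Ly6e at 2.22-fold, while the wild-type mean of Psca was 5.35-fold that of homozygotes. Ly6d, Ly6k and Prom1 did not pass the threshold, and Ly6c2 lay under the filter on low values. Log2(scaled FPKM + 1) was fitted with limma across the 11762 genes whose mean reached 1 scaled FPKM, and the threshold was an adjusted p of 0.05. Of the 7 members tested 4 passed, 3 higher and 1 lower, where 7.65% of all genes tested passed (4.65% higher and 3.00% lower). Under the alternatives 3 to 5 members passed: 5 with unscaled FPKM (5.82% of all genes), 3 with quantile normalization (7.43%) and 3 with no filter on low values (4.08%). It was 4 with a pseudocount of 0.1 (7.58%), a minimum mean of 5 (8.28%), no trend (7.26%) and a robust trend (8.09%). Leaving out mouse 27 or mouse 28 gave 5 each (17.2% and 13.9% of genes), and leaving out mouse 26 or mouse 29 gave 3 each (3.01% and 3.36%). The groups did not overlap in 5 of the 7, against 51.1% of all genes tested. The median difference of the 7 was 0.60 on the log2 scale, and that of all genes tested was -0.003. Because the members were picked for this contrast, nothing is read from these counts. In whole tissue, a lower level from fewer cells of a type cannot be told apart from less RNA per cell, and with 2 mice a group an exact permutation test cannot go under p = 0.333.

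**Figure D2:**
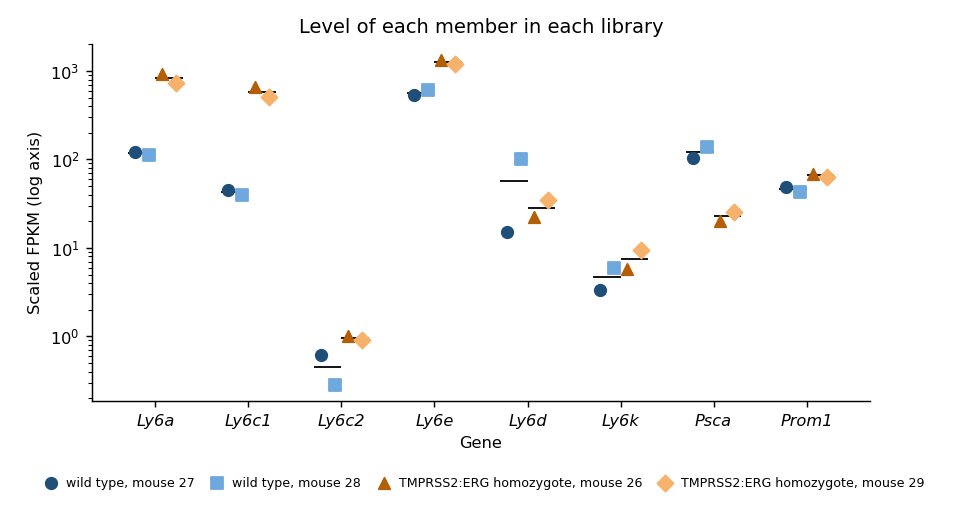
Scaled FPKM (log axis) of each member in each of the 4 libraries, with a short line at the mean of each genotype. Both homozygotes lie above both wild types for Ly6a, Ly6c1, Ly6c2, Ly6e and Prom1 and below them for Psca, while for Ly6d both lie between the wild types and for Ly6k only mouse 26 does.

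Ly6a (Entrez 110454, chromosome 15, 74994877 to 74997888, mm10) was at 123 and 112 scaled FPKM in wild types and at 931 and 727 in homozygotes. Both homozygotes were high and the groups were far apart: the lower homozygote was 5.92-fold the higher wild type, while the wild types differed by 1.09-fold and the homozygotes by 1.28-fold. The means were 118 ± 7.45 and 829 ± 144 (SD, n = 2 each), a log2 difference of 2.80 (SE 0.179). In the order of all rows by FPKM, Ly6a stood at place 497 and 507 in the wild types and at 79 and 87 in the homozygotes. Its difference ranged from 2.60 to 2.98 over all alternatives tried.

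Ly6c1 (Entrez 17067, chromosome 15, 75044018 to 75048837) was at 45.4 and 39.8 scaled FPKM in wild types, and at 654 and 507 in homozygotes. Each homozygote was at least 11.2-fold above each wild type. The means were 42.6 ± 3.96 and 580 ± 104 (SD, n = 2 each), a log2 difference of 3.73 (SE 0.171). Mouse 26 had more of both Ly6a and Ly6c1 than mouse 29. Within a library, where scaling plays no part, the FPKM of Ly6c1 was 0.369 and 0.354 of that of Ly6a in wild types and 0.702 and 0.697 in homozygotes. The pair therefore changed unequally, and this ratio is subject to the shared windows given above.

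Ly6c2 (Entrez 100041546, chromosome 15, 75108161 to 75111949), the closest copy of Ly6c1, was near the floor. It was at 0.613 and 0.284 scaled FPKM in wild types, and at 1.01 and 0.913 in homozygotes. Homozygotes were higher, but all values were at about 1 or less and the gene was not tested. Added together, Ly6a, Ly6c1 and Ly6c2 were at 169 and 152 in the wild types and at 1586 and 1235 in the homozygotes. On average the homozygotes were 8.78-fold higher. If each read was counted for 1 gene only, this sum does not depend on the division among the 3 copies, apart from differences in transcript length. It would depend on whether reads with several matches were dropped or counted for several genes, which is not known.

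The stretches before the starts of Ly6c1 and Ly6c2 are shown because the genes are nearly identical in their coding sequence but far apart in level. They are the 250 bases before the 5′-most RefSeq start on GRCm38.p6, the same build as mm10, with capitals at each GGAA, the core of sites bound by ETS factors such as ERG, or its reverse complement TTCC. Ly6c1 is read from chr15:75048838-75049087 and Ly6c2 from chr15:75111972-75112221, both on the minus strand.
Ly6c1: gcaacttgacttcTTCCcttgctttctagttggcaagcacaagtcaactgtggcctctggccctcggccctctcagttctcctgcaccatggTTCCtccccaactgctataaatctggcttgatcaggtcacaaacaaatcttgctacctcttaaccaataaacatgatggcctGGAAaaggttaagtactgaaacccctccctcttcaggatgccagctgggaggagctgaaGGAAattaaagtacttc
Ly6c2: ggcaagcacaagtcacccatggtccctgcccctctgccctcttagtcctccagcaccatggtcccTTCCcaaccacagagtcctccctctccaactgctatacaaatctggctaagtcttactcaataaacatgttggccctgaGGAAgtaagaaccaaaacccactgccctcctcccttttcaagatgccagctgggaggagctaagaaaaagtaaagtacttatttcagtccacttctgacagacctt
Aligned with free ends, the stretches were 71.9% identical over 228 columns. GGAA was found 4 times before Ly6c1, 2 times before Ly6c2 and 3 times before Prom1, where 93.4% of the 27025 genes in the RefSeq table hold it on either strand and the mean is 2.91. The longer ETS motif AGGAAGT, which contains GGAA, was found 1 time before Ly6c2 and not before Ly6c1 or Prom1, and 7.77% of genes hold it. Of the motifs CGGAAGT (ETS, held by 4.97% of genes), TTCNNNGAA (STAT, 7.14%), its form with 4 free bases in place of 3 (5.88%), GAAA repeated after 2 free bases (interferon element, 3.05%) and AGAACA (part of androgen receptor sites, 16.1%), none was found before these 3 genes on either strand. A match to these letters is not a bound site. Of the 8 members, 3 matched an entry of the table used, Ly6c1, Ly6c2 and Prom1.

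Ly6e (Entrez 17069, chromosome 15, 74955051 to 74959905), a widely expressed interferon-responsive member, was the most abundant of the 8 in both genotypes. It was at 528 and 604 scaled FPKM in wild types, and at 1323 and 1194 in homozygotes. The lower homozygote was 1.98-fold the higher wild type. The means were 566 ± 53.4 and 1259 ± 90.9 (SD, n = 2 each), a log2 difference of 1.15 (SE 0.195). The call was lost on leaving out mouse 27 (difference 1.06), mouse 26 (1.08) or mouse 29 (1.23), under quantile normalization (0.93) and with no filter, while the difference stayed above 0 in each. The authors' deposited table lists Ly6e at a log2 fold of 1.22 and at 1 for both p-value and q-value. It is among 266 rows of the authors' deposited table whose fold has at most 2 decimals, of which 258 have a q-value of 1.

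Psca (Entrez 72373, chromosome 15, 74714839 to 74717065) went the other way. It was at 105 and 138 scaled FPKM in wild types, and at 19.9 and 25.5 in homozygotes. The lower wild type was 4.12-fold the higher homozygote. The means were 121 ± 23.5 and 22.7 ± 3.91 (SD, n = 2 each), a log2 difference of -2.37 (SE 0.185) that ranged from -2.56 to -2.17 over the alternatives. Against Ly6a in the same library, the FPKM of Psca was 0.853 and 1.23 in wild types and 0.0214 and 0.0350 in homozygotes. Against Krt8, a keratin gene of luminal epithelium, it was 0.576 and 0.680 in the wild types and 0.117 and 0.152 in the homozygotes.

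Ly6d (Entrez 17068, chromosome 15, 74762056 to 74763567), a marker of early B cells, of stratified epithelium and of a luminal prostate population, varied most between mice of a genotype. Wild types were at 15.03 and 99.96 scaled FPKM, a 6.65-fold spread, and homozygotes at 22.3 and 34.9. Mouse 28 was high and mouse 27 low, and both homozygotes lay between the wild types. The log2 difference was -0.47 (SE 0.819). It was -1.80 without mouse 27, where it passed the threshold, and 0.85 without mouse 28, so its direction rests on those mice. The authors' deposited table lists Ly6d at a log2 fold of -1.23 (q-value 4.79e-06).

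Many genes of the urothelium list shared the top places of Ly6d: of 14 tested, mouse 28 was highest in 13, and mouse 29 was next in 10 of those. The lower places could differ: mouse 27 was lowest for Ly6d, and mouse 26 was lowest for Upk3a, Upk2 and Krt20. Upk3a, a plaque protein gene of bladder lining, was at 1.91 and 51.7 scaled FPKM in wild types, and at 1.31 and 12.7 in homozygotes. Upk2 was at 4.62, 42.9, 2.64 and 9.93 in mice 27, 28, 26 and 29, and Krt20 at 0.364, 3.66, 0.092 and 1.45. Lypd3, a Ly6 relative of stratified epithelium, was at 1.05, 6.95, 1.12 and 2.43. In each of these genes, picked after their values were seen, mouse 28 was highest and mouse 29 next. Gsdmc2 (7.36, 21.7, 0.813 and 0.133) and Gsdmc3 had mouse 27 next and mouse 29 lowest, and Gata3 was highest in mouse 29 (55.8, 60.6, 55.9 and 80.2). Upk1a had another order, with mouse 26 next after mouse 28, at 266, 445, 389 and 331. Summed over the 14 tested genes of the urothelium list, levels were 419 and 862 in wild types and 559 and 567 in homozygotes. The part of urothelial RNA in the values of Ly6d and Psca was not tested.

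**Figure D3:**
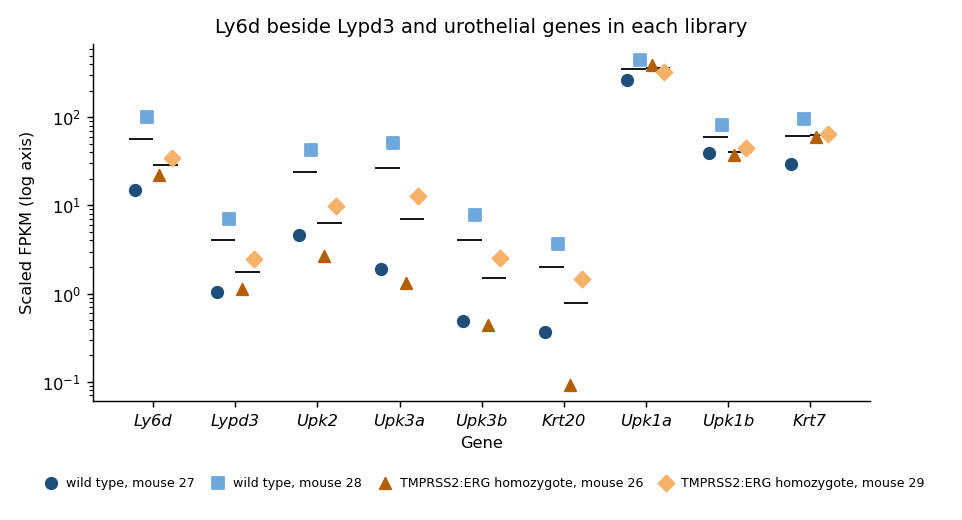
Scaled FPKM (log axis) of Ly6d, Lypd3 and 7 genes of the urothelium list in each library, with a line at each genotype mean; the genes were picked after their values were seen. Mouse 28 is highest in all 9, from 51.7 against 1.91 in mouse 27 for Upk3a to 445 against 266 for Upk1a.

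Ly6k (Entrez 76486, chromosome 15, 74796874 to 74799968), best known from the testis and sperm, was low. It was at 3.36 and 5.97 scaled FPKM in wild types, and at 5.73 and 9.45 in homozygotes. The groups overlapped, with mouse 28 above mouse 26. The log2 difference was 0.60 (SE 0.295), and it lay between 0.27 (mouse 27 left out) and 0.94 (mouse 28 left out, where it passed the threshold) over the alternatives.

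Prom1 (Entrez 19126, chromosome 5, 43993622 to 44101736), the only member away from chromosome 15, was at 49.3 and 43.0 scaled FPKM in wild types, and at 68.7 and 63.1 in homozygotes. Homozygotes were higher without overlap, 1.43-fold in the mean. The log2 difference was 0.51 (SE 0.123) and did not pass the threshold, but it did with unscaled FPKM (0.58) and without mouse 27 (0.60). The authors' deposited table lists Prom1 at a log2 fold of 0.57 (q-value 1.73e-05). Per kilobase and against Epcam, an epithelial adhesion gene that itself rose (0.79), Prom1 was at 0.187 and 0.175 in the wild types and 0.156 and 0.144 in the homozygotes. Against Krt8 it was at 0.271 and 0.212 in the wild types and 0.403 and 0.378 in the homozygotes, so its direction depends on the epithelial gene it is set against.

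By level per length, the order in wild types ran from Ly6e (566 scaled FPKM) through Psca (121), Ly6a (118), Ly6d (57.5 ± 60.1), Prom1 (46.2), Ly6c1 (42.6) and Ly6k (4.67) to Ly6c2 (0.449). Psca and Ly6a overlapped there, as did Prom1 and Ly6c1, and Ly6d spanned both of the latter. In homozygotes it ran from Ly6e (1259) through Ly6a (829), Ly6c1 (580), Prom1 (65.9), Ly6d (28.6), Psca (22.7) and Ly6k (7.59) to Ly6c2 (0.960). Ly6d and Psca overlapped there. Ly6c1 stood 6th in wild types and 3rd in homozygotes, and Psca 2nd and 6th.

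The 7 members on chromosome 15 lie within 397 kb, so their neighbours were examined over that stretch and 250 kb on either side. The stretch holds 25 rows, of which 14 were tested. The members that were higher, Ly6e, Ly6a and Ly6c1, are close to each other, and Psca lies at the other end. Of the 8 tested neighbours that are no members, 1 rose and none fell: 1700016M24Rik (log2 difference 1.54, SE 0.103, limma adjusted p = 0.00128), and their median was 0.06. Ly6f, the nearest tested row beyond Ly6c2, was at 16.8 and 10.4 scaled FPKM in wild types, against 6.84 and 8.29 in homozygotes and did not pass (-0.74, limma adjusted p = 0.134). The tested rows between Psca and Ly6d, among them Lynx1 (0.25) and Lypd2 (-0.49), did not pass. The other 10 neighbours were at 0.514 scaled FPKM or less in each library, among them Ly6i, which lies between Ly6e and Ly6a.

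**Figure D4:**
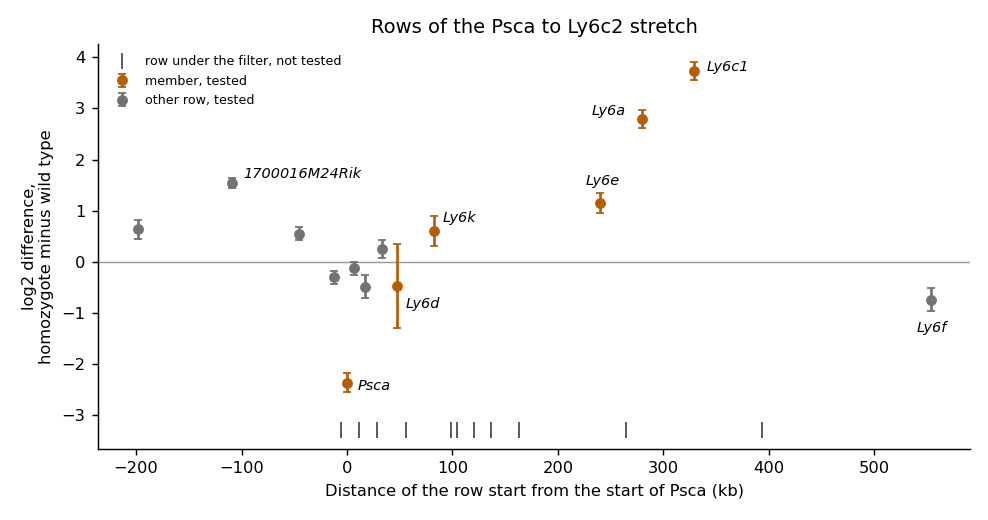
Log2 difference (homozygote minus wild type, bars are the SE of the limma fit) of each tested row by the distance of its start from that of Psca in kb, with ticks for the 11 rows under the filter. Ly6e, Ly6a and Ly6c1 lie together at 1.15, 2.80 and 3.73, Psca is at -2.37, 1700016M24Rik is at 1.54, and the other neighbours lie between -0.74 and 0.63.

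Among other genes of the Ly6 and urokinase receptor superfamily, 3 of 11 tested rose and none fell (3 and 1 at an unadjusted p under 0.05 by limma), with a median of -0.15 against -0.003 for all genes tested. Plaur, the urokinase receptor, was at 2.38 and 2.33 scaled FPKM in wild types, against 9.89 and 10.4 in homozygotes (1.73, SE 0.106, limma adjusted p = 9.86e-04). Ly6g6e, in a Ly6 group on another chromosome, was at 5.21 and 4.69 in the wild types and 14.2 and 12.5 in the homozygotes (1.27, SE 0.118, limma adjusted p = 0.00375). Its neighbour Ly6g6d rose by 0.71 (SE 0.147, limma adjusted p = 0.0466), a call lost on leaving out mouse 26 or mouse 29, under quantile normalization and with no filter. Leaving out mouse 28 gave 6 genes of this list past the threshold and leaving out mouse 27 gave 5. Of 35 genes on the list 27 have a row, and 4 of those are listed at 0 in all libraries.

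Markers of prostate progenitor cells and proximal ducts went both ways. Of the 29 tested, 4 of which are members, 5 rose and 2 fell; without the members 4 of 25 rose and 1 fell, with a median of 0.19. Cd44, a hyaluronan receptor, was at 3.69 and 5.82 scaled FPKM in wild types, against 23.0 and 22.8 in homozygotes (2.08, SE 0.189, limma adjusted p = 0.00350). Wfdc2, a secreted protein gene of duct epithelium, was at 35.3 and 68.7 and at 247 and 250 (2.31, SE 0.303, limma adjusted p = 0.0115). Sox2, a transcription factor, rose by 1.12 (limma adjusted p = 0.0265) and Itga6, the integrin known as CD49f, by 0.70 (limma adjusted p = 0.0456). Krt4, a keratin found with Psca in proximal luminal cells, was at 39.8 and 72.5 in the wild types and 20.3 and 19.1 in the homozygotes (-1.40, SE 0.272, limma adjusted p = 0.0394). Kit (0.42) and Krt7 (0.24) did not pass. The calls of Sox2, Itga6 and Krt4 were lost on leaving out mouse 26 or mouse 29 and with unscaled FPKM, and those of Cd44 and Wfdc2 held in each alternative. Members included, 13 of the list passed on leaving out mouse 27 or mouse 28, and 4 on leaving out mouse 26 or mouse 29 and with no filter.

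Of 27 tested genes that make or remodel GPI anchors, 1 rose and 1 fell, with a median of 0.08. Pigt, a subunit of the enzyme that attaches the anchor, was at 68.0 and 85.3 scaled FPKM in the wild types and 131 and 124 in the homozygotes (0.74, limma adjusted p = 0.0439). Pgap2, which remodels the anchor's lipid, was at 222 and 211 and at 135 and 120 (-0.76, limma adjusted p = 0.0291). Both calls were lost on leaving out mouse 26 or mouse 29 and with no filter, and that of Pigt also with unscaled FPKM and under quantile normalization.

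Several cell types other than prostate epithelium carry Ly6a, Ly6c1 or Ly6e, and their markers were read beside the members. Of 16 endothelial genes tested none passed by limma, and at an unadjusted p under 0.05 there was 1 above 0 and 2 below. Of these genes 15 lay below 0, and the median was -0.18. Their summed level was 76.3 and 80.3 scaled FPKM in the wild types and 66.7 and 73.2 in the homozygotes. Relative to Pecam1, an endothelial adhesion gene, the FPKM of Ly6a was 11.7 and 10.1 in wild types and 103 and 79.7 in homozygotes. Of 21 monocyte and macrophage genes 3 rose and none fell (9 and 0 at an unadjusted p under 0.05, median 0.21): Cd14 by 1.64 (limma adjusted p = 9.86e-04), Fcgr3 by 1.72 (limma adjusted p = 0.00878) and Laptm5 by 0.85 (limma adjusted p = 0.0152). Their summed level was 1312 and 600 in the wild types and 656 and 726 in the homozygotes. Most of it was Cd52 (995 and 411, and 340 and 453), while Ptprc was at 0.828 to 1.57. The cells that carry Cd52 were not determined, so the sum is not read as a level of monocytes and macrophages. The call of Laptm5 was lost on leaving out mouse 26 or mouse 29, and 11 genes of the list passed on leaving out mouse 27. Against Cd14 in the same library, the FPKM of Ly6e was 84.6 and 92.7 in wild types and 59.0 and 55.5 in homozygotes, and that of Ly6a was 19.7 and 17.3 and 41.5 and 33.8. Against Ptprc, the leukocyte gene CD45, Ly6a was at 112 and 136 and at 593 and 477. Ccr2, a receptor that marks Ly6C-positive monocytes, was at 1.04 and 0.818 in wild types and 1.26 and 1.17 in homozygotes. Of 20 lymphocyte genes with a row, 2 passed the filter and none passed the test by limma, also none at an unadjusted p under 0.05, and Cd3e was at 0.591 to 0.825 in all libraries. The summed level of the 2 was 2.22 to 7.22.

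Of 26 interferon response genes tested 6 rose and none fell by limma (11 and 1 at an unadjusted p under 0.05), with a median of 0.31. Ifitm3, an antiviral membrane protein gene, was at 79.4 and 83.2 scaled FPKM in the wild types and 500 and 391 in the homozygotes (2.43, SE 0.164, limma adjusted p = 0.00134). Oasl2 (0.85), Rsad2 (1.02), Irf7 (0.79), Zbp1 (1.13) and Bst2 (0.59) rose less on this log2(scaled FPKM + 1) scale, which shrinks low genes. Zbp1 was 7.11-fold higher in the mean, against 5.47-fold for Ifitm3, but its fold rests on values near the floor. It was at 0.262 and 0.241 in wild types and 2.29 and 1.29 in homozygotes. Zbp1 and Rsad2 were under 1 in both wild types and reached the filter only through the homozygotes. Stat2 (0.14), Irf9 (-0.08) and Ifit1 (0.10) did not pass. The summed level of the list was 243 and 230 in the wild types and 709 and 584 in the homozygotes, where most of it was Ifitm3. Of this list 13 genes passed on leaving out mouse 27, 1 on leaving out mouse 26, 2 on leaving out mouse 29 and 2 with no filter, and Ifitm3 passed whichever mouse was left out.

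A list of mast cell genes was added after the data were seen, because Cma1 had a profile near that of Ly6c1. Of 10 tested 8 rose and none fell by limma (9 and 0 at an unadjusted p under 0.05), with a median of 2.98. Cma1, for which the list was added, is itself among the 8. Tpsab1, Mcpt2 and Fcer1a were under 1 scaled FPKM in both wild types and reached the filter only through the homozygotes. Such genes could hardly be called lower, so nothing is read from the count or the median. The tryptase gene Tpsab1 was at 0.789 and 0.978 scaled FPKM in the wild types and 120 and 91.1 in the homozygotes (5.81, SE 0.158). The carboxypeptidase gene Cpa3 was at 1.90 and 2.21 and at 35.7 and 30.5. The count was 7 to 9 with any 1 mouse left out. The summed level of the 10 was 63.5 and 71.5 in the wild types and 371 and 310 in the homozygotes. The part of endothelium, mast cells, monocytes and interferon response in the values of Ly6a, Ly6c1 and Ly6e was not tested.

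Markers of epithelium, stroma and adjoining tissues were read in the same way. Of 17 luminal genes apart from Prom1, Spdef (0.90) and Epcam (0.79) rose and none fell (4 and 2 at an unadjusted limma p under 0.05, median 0.17), and of 16 basal genes Lgals7 and Itga6 rose and Igfbp2 fell (median 0.23). All 17 smooth muscle genes lay below 0, of which Pgm5 passed (median -0.55), and of 16 fibroblast and mesenchymal genes apart from Ly6a only Postn passed, lower (median -0.12). The calls of Spdef, Epcam, Itga6, Pgm5 and Postn were lost on leaving out mouse 26, and on leaving out mouse 28 the number passing rose to 12 of the basal and 11 of the smooth muscle list. In the urothelium list only Gsdmc2 (-3.27) and Gsdmc3 (-2.41) fell and none of 14 rose (median -0.56), while 1 passed with no filter or a robust trend. Both were under 1 scaled FPKM in each homozygote and reached the filter through the wild types. None of Upk1a, Upk1b, Upk2, Upk3a and Upk3b passed, so the 2 calls are not read as a fall of the list. In the seminal vesicle list 6 of 9 fell and none rose (median -7.07), and 3 passed on leaving out mouse 26 or mouse 29 and with unscaled FPKM. None of these 9 passed by limma with no filter or with a robust trend. In the fit with the filter and the plain trend, 8 were below an unadjusted p of 0.05. Svs2, Svs4 and Svs5 had missing values and are not among the 9. Against Epcam, the FPKM of Ly6a was 0.467 and 0.459 in wild types and 2.11 and 1.66 in homozygotes, and that of Ly6e was 2.01 and 2.46 and 2.99 and 2.73.

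**Figure D5:**
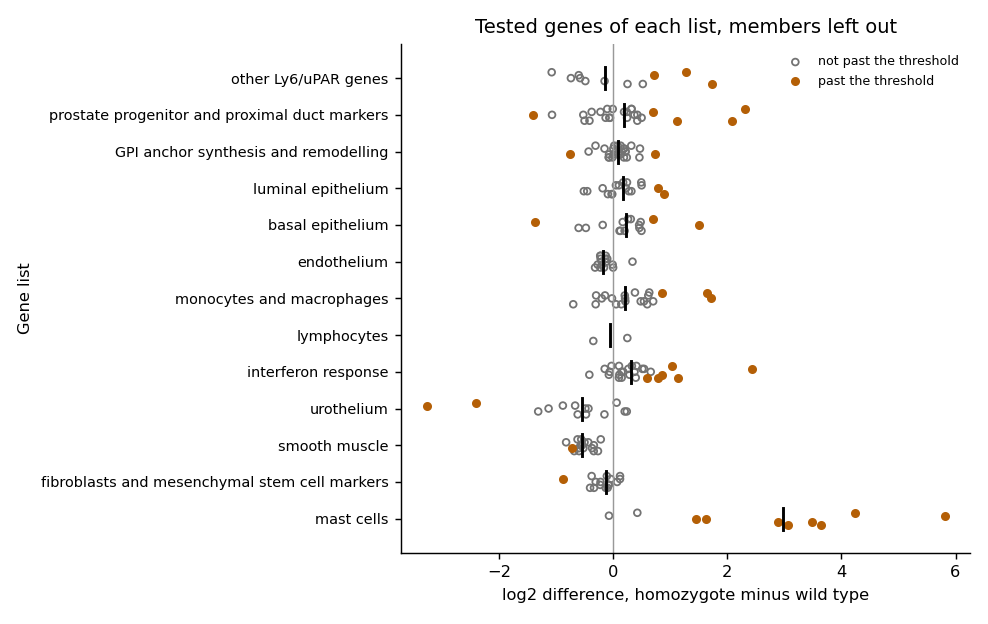
Log2 difference (homozygote minus wild type) of each tested gene in 13 lists, members left out, with filled points past the limma threshold, a bar at each median and a line at the median of all genes; the seminal vesicle list (median -7.07) is off this scale. Interferon response has 6 genes past the threshold above 0, endothelium none, and mast cells, a list added after the data were seen, 8.

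The genes with the most similar profile were found by the Euclidean distance between log2(scaled FPKM + 1) values centred over the 4 libraries, among all genes tested. Nearest to Ly6a were Ecscr (distance 0.108), Srms (0.170) and Lrg1 (0.174). Ecscr, whose name refers to endothelial cells, was not on the endothelial list. It was at 5.15 and 4.23 scaled FPKM in wild types, against 40.8 and 33.6 in homozygotes. Nearest to Ly6c1 were Expi (0.210), Cma1 (0.219) and Mdk (0.269), and nearest to Ly6e were Chst12 (0.0526), Pstpip2 (0.0608) and 0610031J06Rik (0.0632). Nearest to Psca were Atp2c2 (0.194), Ephb6 (0.280) and Pirt (0.286), and Atp2c2 was at 26.3 and 30.0 in the wild types and 4.41 and 5.05 in the homozygotes. Nearest to Ly6d were Srd5a1 (0.405), Slc14a1 (0.409) and Snurf (0.494), at a larger distance than for the other members. Ly6k had Frzb (0.206) nearest and Prom1 had Tmem50b (0.0370). No member was among the 3 nearest of another.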

How the data were processed

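Per the labels' protocols, RNA came from an RNeasy Plus kit and library preparation was Illumina's. TopHat 1.3, Cufflinks 1.3 and mm10 are named in the submitters' processing notes. No source used here gives their roles, the annotation or whether strand was used. The deposited values were read as FPKM from their range, since headers give no unit. The authors' deposited table also gives each gene a log2 fold, p-value and q-value. The value 99999, read as a code, was treated as missing, and no member has it.

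Each library's FPKM was divided by a scaling factor, the median ratio to the genes' geometric means among genes reaching 1 FPKM in all libraries. The 11762 genes whose mean reached 1 scaled FPKM were tested with limma 3.58.1 in R 4.3.3 on log2(scaled FPKM + 1) (two-sided, moderated with a mean-variance trend, adjusted by Benjamini and Hochberg, threshold 0.05). This scale understates differences of low genes. Residual degrees of freedom were 2, and the fit was tested on simulated data. The log2 scale of the authors' fold was read from the values. Groups came from the labels, 1 mouse per library. Coding identity, shared windows and motifs were computed with Python 3.11.15 and Biopython 1.88 from GENCODE M21 transcripts and RefSeq promoters. Starts were raised by 1 to count from 1.

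The members and gene lists were chosen with earlier results of these data known, and the mast cell list after the data were seen. Genes were named by rule: the members, up to 4 genes with the smallest adjusted p of each list, genes past the threshold near the members on chromosome 15, and the 3 nearest profiles. The other genes named were chosen after their values were seen. The alternatives tried were FPKM without scaling or with quantile normalization, a smaller pseudocount (0.1), no filter or a stricter one (mean of 5), moderation without the trend or with a robust one, leaving out each library, and the authors' deposited call. Results for a few genes of the lists are not reported here.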

Additional observations from a re-analysis of the deposited data

How the results depend on the processing

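The number of genes past the threshold lay between 355 and 2028 when a mouse was left out (lowest on leaving out mouse 26, highest on leaving out mouse 27), against 900 with all mice and 2034 in the authors' deposited table (14.2% of 14374 rows with a q-value). A genotype left with 1 mouse takes its spread from the other genotype. Without scaling 73.0% of calls were higher in homozygotes, against 60.8% with it. Of the members, Ly6a, Ly6c1 and Psca passed in all 11 alternative fits, Ly6e in 6, Prom1 in 2, and Ly6d and Ly6k in 1 each; the authors' deposited table has 5 members under a q-value of 0.05. Of 84 recomputed member differences 82 moved by less than the spread within groups, and the other 2 were those of Ly6a (2.60) and Ly6e (0.93) with quantile normalization. Most of the 82 could hardly have moved further, so no stability is read from this count. Fits that altered only the filter or the moderation kept each difference the same. With 2 mice a group, dropping 1 can hardly shift a difference beyond that spread. Ly6d went from -0.47 to -1.80 (mouse 27 left out) or 0.85 (mouse 28 left out), still within its spread of 1.36. The mean levels of all 8 members in both genotypes moved by less than the spread within groups without scaling. Of 168 recomputed list counts 49 moved by over 1.5 times, and the cause was not tested. No paired analysis was possible because the genotypes share no replicate number. Depth is known only as an estimate, so no interval for counting error was given for Ly6c2 and other low genes.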
